A study of Oryza sativa with 27 samples.

Results

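In rice cells treated with the safener metcamifen, 101 loci stood below the solvent control at 90 min and, by the rule that chose them, were not as far below it at 240 min. They were selected on measured values from the 46102 rows of the count table, 45866 of which carry LOC_Os identifiers. The selection used CPM, a locus's count divided by its library's total and scaled to 1000000 counts. At each time the log2 ratio of metcamifen to DMSO was taken from the mean CPM of each group after adding 0.5 CPM. A locus was chosen where this ratio was -0.8 or lower at 90 min and above -0.8 at 240 min. At 90 min its highest metcamifen library also had to lie below its lowest DMSO library, and its DMSO mean had to reach 2 CPM. Of the LOC_Os rows, 20885 reached that DMSO level, 173 of these also had the 90 min ratio, and 111 had both the ratio and separate libraries. The 240 min criterion then removed 10, which left the 101.

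The samples were rice (Oryza sativa) suspension cells of the cultivar Tsukinohikari, 5 days in culture, whose polyA RNA was sequenced. They received metcamifen at 5 µM, cyprosulfamide at 5 µM, or the carrier solvent DMSO alone, in which both compounds were dissolved. Cells were taken at 30, 90 and 240 min, giving 9 groups of 3 biological replicates and 27 libraries. No whole plants and no herbicide treatment were part of these groups.

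Safeners are compounds given with a herbicide that protect a cereal crop from its injury, and they are known for raising transcripts of detoxifying enzymes such as glutathione transferases and cytochromes P450. Metcamifen and cyprosulfamide are related aryl sulfonamides that share a methoxybenzoyl sulfonamide core. On the far side of the central ring, metcamifen carries a methylurea and cyprosulfamide a cyclopropyl amide. A lowered steady-state transcript level can come from less synthesis or from faster decay, and polyA RNA-seq does not separate these. In cultures, fewer cells of a kind and less RNA per cell cannot be told apart either.

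None of the locus identifiers matched the reference gene table used here (0 of its 39387 rows, assembly ASM3414082v1), so the loci are named by identifier, without gene name, role or sequence. CPM are not scaled by transcript length, so a higher CPM at a locus than at another need not be a higher transcript level. Library totals ranged from 5516373 to 43747251 counts. Of the 101 loci, 15 had under 10 counts in some library. LOC_Os04g23550 had 0 counts in a library. The replicate numbers used here follow the order of the libraries in the count table, and the library titles carry none. Same-numbered DMSO libraries of different times deviated together, as did same-numbered metcamifen libraries. The 30 min libraries were thus separate from the selection but not wholly independent of it. Replicate 2 of cyprosulfamide at 30 min stood apart from its group: its counts differed from those of replicates 1 and 3 with a chi-square per degree of freedom of 34.9 and 42.9, where replicates 1 and 3 gave 5.91. Replicate 1 of DMSO at 240 min (25.6 and 26.6, against 5.30 for the other pair) also differed from its group. So did replicate 1 of metcamifen at 240 min (12.1 and 17.6, against 5.94). Leaving out each of these in turn, the rule chose 100 and 96 loci, of which 99 and 95 were among the 101. DMSO replicate 1 also stood apart at 30 min (9.24 and 20.8, against 5.265) and at 90 min (11.1 and 13.8, against 4.60). Without that 90 min DMSO library, which the selection used, the rule chose 182 loci, of which 84 were among the 101. Replicate 1 of metcamifen at 90 min, also used by the selection, differed from its group (6.25 and 8.48, against 2.97). Without this metcamifen library the rule chose 168 loci, of which 85 were among the 101.

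**Figure D1:**
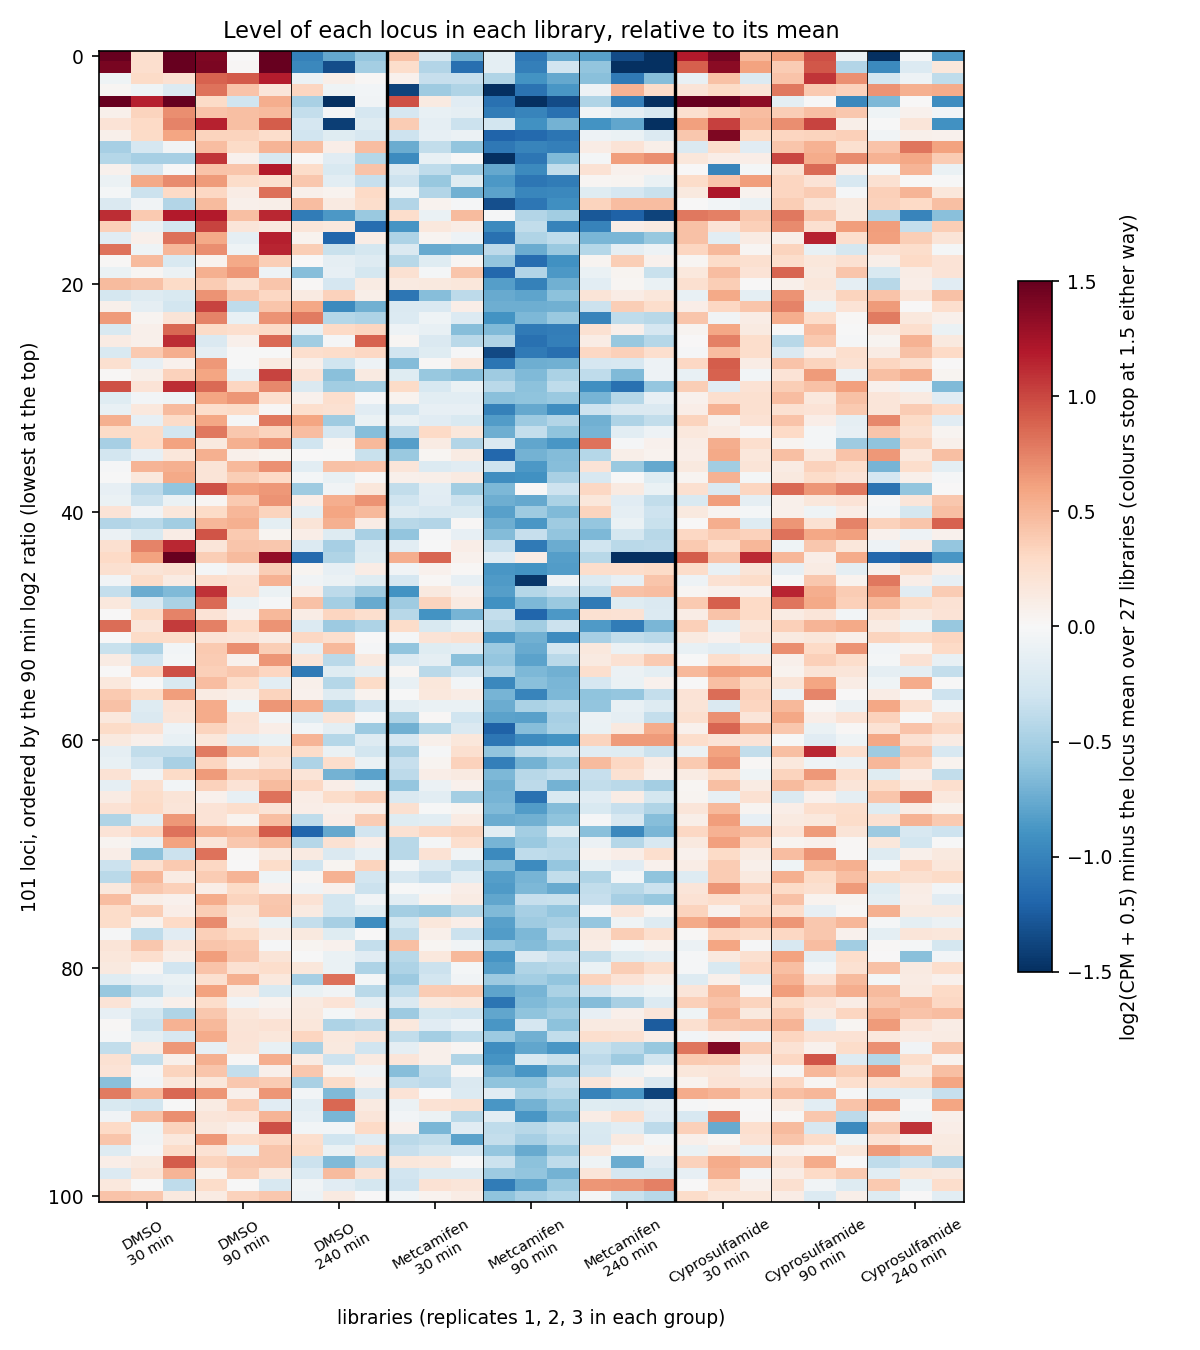
Log2(CPM + 0.5) of each of the 101 loci (rows) in the 27 libraries (columns, 3 per group), minus the mean of the locus over all libraries. The metcamifen libraries at 90 min form the low block, which the choice of loci fixes, with a median over the loci between -0.74 and -0.58. In the DMSO libraries at 90 min the median lay between 0.23 and 0.42.

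The values that chose the loci are a description. At 90 min the log2 ratio of metcamifen to DMSO ran from -1.74 to -0.80 with a median of -1.01, beside -0.07 over the 20885 rows at that level. The ratio was -1 or lower at 53 loci and -1.4 or lower at 11. Together the 101 loci took 0.236% ± 0.0159 (SD, n = 3) of all counts in DMSO at 90 min and 0.107% ± 0.0047 under metcamifen. With edgeR's quasi-likelihood model, 93 of the 101 had a lower level at 90 min at an adjusted p under 0.05, a call that 1.45% of the 26465 tested loci met. The selection used the same libraries, so nothing is read from that count.

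The 3 loci nearest inside the 90 min threshold were LOC_Os02g41800 at -0.81, LOC_Os03g39432 at -0.803 and LOC_Os06g43910 at -0.803. Nearest outside it were LOC_Os11g01550 at -0.799979, LOC_Os01g58550 at -0.7996 and LOC_Os01g55150 at -0.79. At the 240 min threshold, LOC_Os05g07420 at -0.79, LOC_Os02g13510 at -0.77 and LOC_Os01g03452 at -0.65 lay inside, and LOC_Os07g40290 at -0.81, LOC_Os01g68460 at -0.85 and LOC_Os01g72380 at -0.86 outside.

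Among the 10 loci with the lowest 90 min ratios, LOC_Os01g65830 stood at 9.6, 3.34 and 10.6 CPM in replicates 1, 2 and 3 of DMSO at 90 min and at 2.95, 1.31 and 1.76 CPM under metcamifen. LOC_Os05g39310 stood at 38.9, 14.4 and 53.3 CPM in DMSO and at 12.8, 6.71 and 11.6 CPM under metcamifen. In both, the DMSO libraries differed more among themselves than the metcamifen libraries, and DMSO replicate 2 was the lowest. LOC_Os04g54240 had the same order, at 6.84, 4.41 and 8.28 CPM in DMSO and 2.27, 1.31 and 1.88 CPM under metcamifen. These 3 loci had ratios of -1.74, -1.73 and -1.59.

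Other loci in this lowest 10 had tight groups. LOC_Os03g06705 stood at 271, 274 and 279 CPM in DMSO at 90 min and at 96.8, 101 and 92.4 CPM under metcamifen, a ratio of -1.5. LOC_Os03g06700 stood at 188, 188 and 179.9 CPM in DMSO and at 64.5, 66.2 and 69.7 CPM under metcamifen, a ratio of -1.47. In LOC_Os11g05690 the DMSO libraries held 45.4, 40.1 and 46.9 CPM and the metcamifen libraries 15.2, 16.2 and 15.8 CPM, a ratio of -1.46. In all 3 the groups were far apart compared with their spread. The remaining loci of this 10 were LOC_Os02g13510, LOC_Os01g64430, LOC_Os08g39390 and LOC_Os06g08340, with ratios of -1.70, -1.69, -1.48 and -1.46.

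DMSO means at 90 min ran from 2.05 to 274 CPM over the 101 loci with a median of 8.91. They were under 5 CPM at 29 loci and above 30 CPM at 24. The 5 loci with the highest DMSO mean CPM were LOC_Os03g06705, LOC_Os03g06700, LOC_Os06g46680, LOC_Os03g40540 and LOC_Os03g02460, at 274, 185, 139.9, 135 and 132 CPM.

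At 30 min, in libraries that the selection did not use, 8 of the 101 loci were already lower under metcamifen than in DMSO at an adjusted p under 0.05 (edgeR quasi-likelihood test, Benjamini-Hochberg over 26465 loci). Over all tested loci 0.185% were lower and 1.16% higher, and none of the 101 was higher. The median log2 fold change of the 101 was -0.28, with 83 below 0 and 18 above. Over all tested loci the median was -0.0037, with 51% below 0. At an unadjusted p under 0.05, 32 of the 101 were lower and 1 was higher in edgeR, against 3.64% and 3.69% of all tested loci. In 26 of them every metcamifen library lay below every DMSO library, against 6.44% of the rows at that level. For 69 of the 93 loci without a call, the 95% interval left no room for a 2-fold difference up or down.

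**Figure D2:**
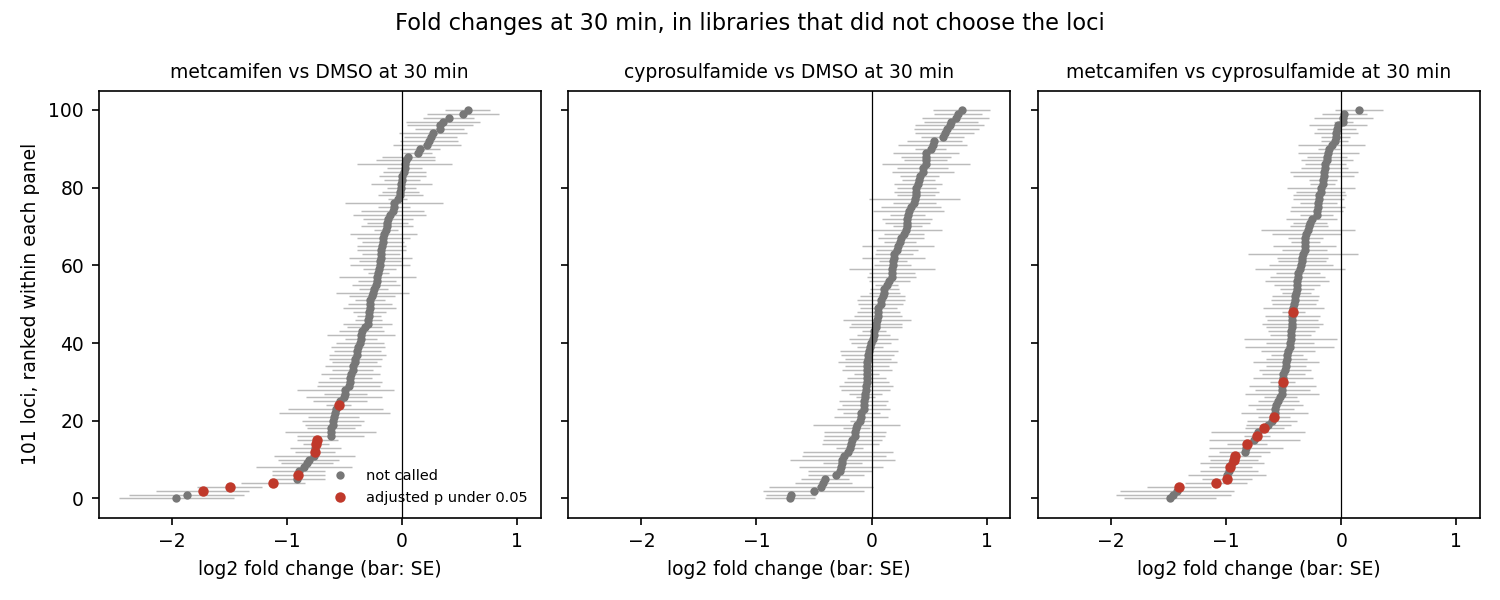
Log2 fold change of the 101 loci at 30 min in 3 panels, metcamifen against DMSO, cyprosulfamide against DMSO and metcamifen against cyprosulfamide. Each point is a locus, ranked within its panel, with its SE as a bar. Loci with an adjusted p under 0.05 are red: 8, 0 and 12 in that order, with medians of -0.28, 0.08 and -0.41.

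LOC_Os03g06840 had the lowest p of these. It stood at 57.1, 61.1 and 50.5 CPM in DMSO at 30 min, at 33, 31.8 and 35.1 CPM under metcamifen and at 59.4, 49.3 and 58.6 CPM under cyprosulfamide. The metcamifen libraries lay apart from all others, and the log2 fold change against DMSO was -0.75 (SE 0.116, adjusted p = 0.000211). Its metcamifen level at 90 min was much the same as at 30 min, at 29.5, 33.1 and 31.2 CPM, and at 240 min it was 46.4, 53.5 and 48 CPM beside 51.6, 38.6 and 41.6 CPM in DMSO, with overlapping groups.

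LOC_Os03g06705 stood at 212, 254 and 326 CPM in DMSO at 30 min and at 169, 185 and 183 CPM under metcamifen. The groups did not overlap, with a fold change of -0.55 (SE 0.110, adjusted p = 0.00463) that was smaller than its 90 min ratio. LOC_Os03g09120, at low counts, stood at 1.65, 2.09 and 3.09 CPM in DMSO and 1.10, 0.65 and 0.82 CPM under metcamifen. Its groups were also separate, with a fold change of -1.5 (SE 0.286, adjusted p = 0.00277). LOC_Os04g54240 stood at 34.4, 13 and 22.3 CPM in DMSO and 11.1, 6.12 and 4.87 CPM under metcamifen, a fold change of -1.73 (SE 0.402, adjusted p = 0.0215), with DMSO replicate 2 close to metcamifen replicate 1.

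The other 4 were LOC_Os07g08460, LOC_Os05g07420, LOC_Os06g33200 and LOC_Os03g13150, with fold changes of -0.76, -0.74, -1.12 and -0.90 and adjusted p of 0.0178, 0.0309, 0.0421 and 0.0476. The call of LOC_Os03g06840 held in every alternative and in every leave-one-out fit, with fold changes between -0.81 and -0.69. The call of LOC_Os03g06705 was lost without DMSO replicate 3 and that of LOC_Os03g09120 without metcamifen replicate 2, and both were lost in the fit to the 6 compared libraries alone, with adjusted p up to 0.208 and 0.105. The calls of LOC_Os04g54240, LOC_Os06g33200 and LOC_Os03g13150 were lost without DMSO replicate 1 or 3 and without metcamifen replicate 2 or 3, with adjusted p up to 0.239, 0.351 and 0.438. LOC_Os05g07420 lost its call in the same 4 fits, and LOC_Os07g08460 without DMSO replicate 1 or 3 or metcamifen replicate 3, with adjusted p up to 0.31 and 0.284. All of these except LOC_Os05g07420 also lost it in the 6-library fit. The number of loci called was 2 without DMSO replicate 3, 3 without metcamifen replicate 2 or replicate 3, and 2 in the 6-library fit.

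By the CPM ratio used for selection, the lowest 30 min values were at LOC_Os05g39310, LOC_Os01g65830, LOC_Os04g54240, LOC_Os03g09120 and LOC_Os06g33200, at -1.75, -1.69, -1.59, -1.03 and -1.01. The first of these stood at 39.1, 17 and 61.4 CPM in DMSO and 17.2, 10.4 and 6.25 CPM under metcamifen, groups that overlapped, and was not called (fold change -1.87, SE 0.499, adjusted p = 0.0715). LOC_Os01g65830 was not called either (fold change -1.96, SE 0.500, adjusted p = 0.0508). The highest values were at LOC_Os12g42020, LOC_Os04g45270, LOC_Os05g44400, LOC_Os01g18744 and LOC_Os07g05420, at 0.52, 0.42, 0.33, 0.29 and 0.26, and none of these 5 was called. LOC_Os12g42020 stood at 16.9, 19.3 and 23 CPM in DMSO at 30 min and 19.4, 33 and 33.4 CPM under metcamifen, with overlap, and at 90 min at 38.7, 27.8 and 21.6 CPM against 14.4, 15.4 and 18 CPM. Its metcamifen libraries were thus the lower group at 90 min and not at 30 min.

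The 2 safeners could be compared at the same dose and time. At 30 min, 12 of the 101 loci were lower under metcamifen than under cyprosulfamide and none was higher (adjusted p under 0.05, edgeR), beside 0.246% and 1.18% of all tested loci. The median log2 fold change was -0.41, with 97 of 101 below 0, beside -0.00034 and 50.1% below 0 over all tested loci. Without cyprosulfamide replicate 2 the median of the 101 was -0.32. In 51 loci every metcamifen library lay below every cyprosulfamide library, against 6.66% of the rows at that level. This was the only pair of compounds, and p-values were adjusted over all loci.

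LOC_Os03g06840 again had the lowest p, with a fold change of -0.73 (SE 0.116, adjusted p = 0.000259). LOC_Os03g06700 stood at 120.3, 137 and 141 CPM under metcamifen and at 197, 394 and 182 CPM under cyprosulfamide, a fold change of -0.96 (SE 0.188, adjusted p = 0.00364). Cyprosulfamide replicate 2 was the high library, and without it the fold change was -0.48 and still called. LOC_Os03g06705, at 237, 257 and 277 CPM under cyprosulfamide, had a fold change of -0.51 (SE 0.110, adjusted p = 0.0101), and LOC_Os03g09120 one of -1.41 (SE 0.278, adjusted p = 0.00403).

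LOC_Os01g04120, LOC_Os11g02850, LOC_Os01g64430 and LOC_Os03g38640 were also called, with fold changes of -0.82, -0.99, -0.93 and -0.58 and adjusted p of 0.0100, 0.0109, 0.0132 and 0.0249. LOC_Os01g64430 stood at 7.42, 13.7 and 14.6 CPM under metcamifen and at 23, 24.7 and 23 CPM under cyprosulfamide, with no overlap. All 4 lost their calls in the 6-library fit, without cyprosulfamide replicate 2 and without metcamifen replicate 1, and LOC_Os01g04120, LOC_Os11g02850 and LOC_Os03g38640 also without metcamifen replicate 2, LOC_Os03g38640 in addition without metcamifen replicate 3, with adjusted p up to 0.291, 0.143, 0.0963 and 0.411 in the order named. LOC_Os03g06705 lost its call without metcamifen replicate 1 or cyprosulfamide replicate 2 (adjusted p up to 0.0715) and LOC_Os03g09120 without metcamifen replicate 2 (adjusted p up to 0.106). In the 6-library fit LOC_Os03g09120 and LOC_Os03g06700 were not called either (LOC_Os03g06700 adjusted p = 0.302). The number of loci called was 3 without cyprosulfamide replicate 2, 5, 4 and 7 without metcamifen replicates 1, 2 and 3, and 4 in the 6-library fit. The count with no overlap does not rest on a high cyprosulfamide library, since it asks that the lowest one exceed every metcamifen library.

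For other loci the safeners were close at 30 min. LOC_Os03g02460 stood at 115, 136 and 138 CPM under metcamifen and at 129, 123 and 136 CPM under cyprosulfamide, a difference of 0.02 with a 95% interval from -0.16 to 0.19 on the log2 scale. LOC_Os03g40540 had a difference of -0.11 with an interval from -0.30 to 0.09. Of the 89 loci without a call, 65 had an interval that left no room for a 2-fold difference.

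Cyprosulfamide against DMSO at 30 min gave no call among the 101 loci in either direction. It shares its DMSO libraries with the metcamifen comparison. Over all loci, 0% were lower and 0.00378% higher. At an unadjusted p under 0.05 by the same edgeR test, 2 of the 101 were lower and 18 higher, against 3.99% and 5.64% of all tested loci. DESeq2 called none at an adjusted p under 0.05. The median fold change was 0.08, with 41 loci below 0 and 60 above. Over all tested loci the median was -0.017, with 53.6% below 0. No locus had all cyprosulfamide libraries below all DMSO libraries, against 3.47% of the rows at that level, and 18 had them all above, against 5.99%. For 79 of the 101, the 95% interval left no room for a 2-fold difference. Without cyprosulfamide replicate 2 the median was -0.01, and without DMSO replicate 3 it was 0.20.

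At 90 min, where the DMSO and metcamifen libraries had been used for selection, values are given side by side. The median log2 ratio of cyprosulfamide to DMSO was -0.09, with a range from -0.89 to 0.36, where that of metcamifen was -1.01. LOC_Os03g06705 stood at 259, 274 and 266 CPM under cyprosulfamide, and LOC_Os03g06700 at 187, 188 and 192 CPM, both close to their DMSO levels. LOC_Os05g39310 had the lowest cyprosulfamide ratio and stood at 18.7, 27.7 and 10.4 CPM, between the metcamifen mean and the DMSO mean. In 96 of the 101 loci every metcamifen library lay below every cyprosulfamide library at 90 min, against 22.1% of the rows at that level.

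**Figure D3:**
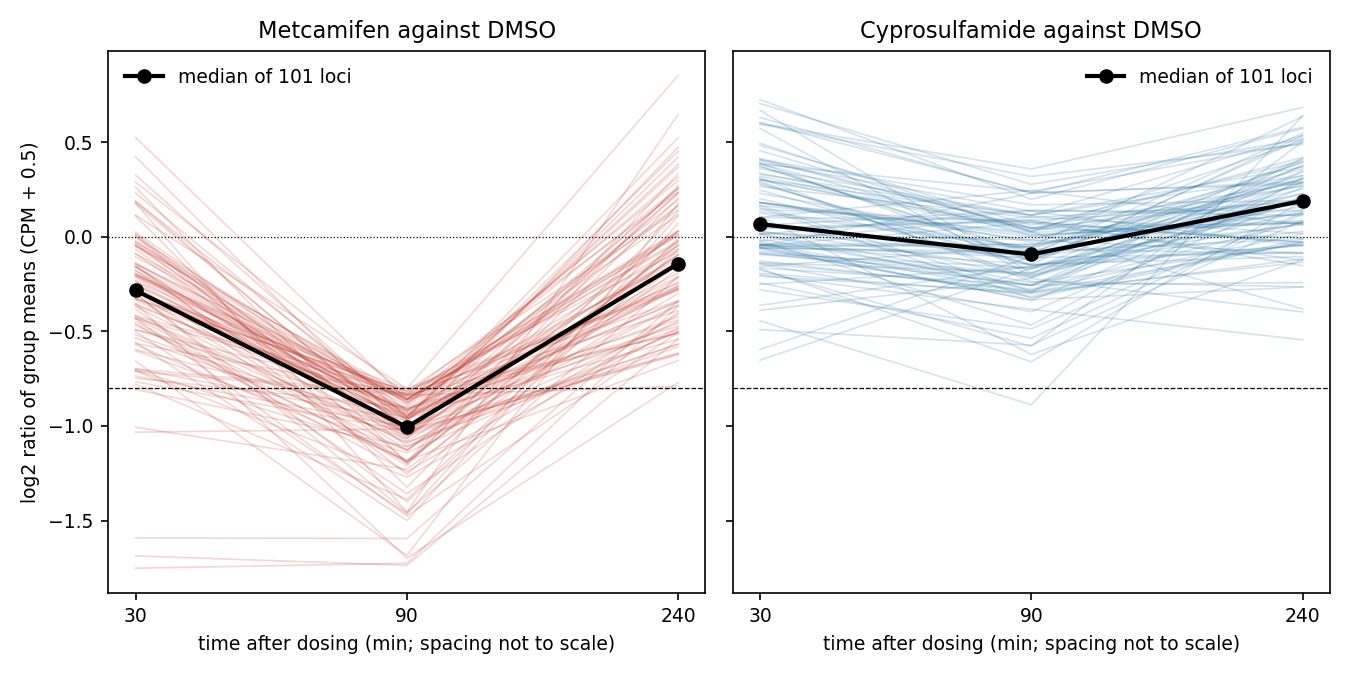
Log2 ratio of group mean CPM to DMSO, with 0.5 CPM added, for the 101 loci at 30, 90 and 240 min (thin lines, 1 per locus; black line, median), for metcamifen and cyprosulfamide. The metcamifen medians were -0.28, -1.01 and -0.14 and the cyprosulfamide medians 0.07, -0.09 and 0.19. The dashed line is the -0.8 threshold that bounds the metcamifen values at 90 and 240 min.

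At 240 min the median ratio of metcamifen to DMSO was -0.14, with a range from -0.79 to 0.85, and 66 loci lay below 0 and 35 above. Over the rows at the DMSO level the median was 0.007, with 48.1% below 0. The ratio was within 0.3 of 0 at 57 loci and below -0.5 at 15. The edgeR fit placed 6 of the 101 lower and 1 higher at 240 min, beside 1.59% and 3.06% of all tested loci. The 6 were LOC_Os01g54210, LOC_Os02g13510, LOC_Os02g22020, LOC_Os03g02460, LOC_Os05g07420 and LOC_Os10g04290. The selection bounded these values from below, so they are a description.

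Between 90 and 240 min the metcamifen mean was higher at 240 than at 90 min while the DMSO mean was lower at 83 loci, both were higher at 7 and both lower at 11. The median log2 ratio of 240 to 90 min was 0.53 under metcamifen and -0.39 in DMSO, beside 0.06 and -0.004 over the rows at that level. Choosing loci by low metcamifen and high DMSO values at 90 min favours this direction, so it is a description only. The metcamifen libraries at 240 min all lay above those at 90 min in 59 loci and all below them in 4, against 22.4% and 10.7% of the rows at that level. The DMSO libraries at 240 min all lay below those at 90 min in 35 loci and all above them in 1, against 7.76% and 5.28%.

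The 101 loci took 0.173% ± 0.00478 (SD, n = 3) of all counts under metcamifen at 240 min, 0.179% ± 0.00903 in DMSO and 0.206% ± 0.00414 under cyprosulfamide. At 30 min the shares were 0.170% ± 0.0113, 0.215% ± 0.0175 and 0.232% ± 0.0227 for metcamifen, DMSO and cyprosulfamide.

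Loci differed in how they stood at 240 min. LOC_Os03g39432 had the highest 240 min ratio, 0.85, and stood at 4.81, 5.91 and 6.99 CPM under metcamifen at 90 min and at 16.9, 17 and 18 CPM at 240 min, beside 10.1, 9.3 and 8.65 CPM in DMSO. Its metcamifen libraries were thus below DMSO at 90 min and above it at 240 min, and it is the locus with the higher edgeR value at that time. The next highest ratios were at LOC_Os06g08340, LOC_Os06g45540, LOC_Os04g45270 and LOC_Os11g02850, at 0.65, 0.52, 0.47 and 0.45. LOC_Os03g40540 stood at 66.2, 65.1 and 67.7 CPM under metcamifen at 90 min and at 146, 146 and 149 CPM at 240 min, against 125, 112 and 131 CPM in DMSO, groups that did not overlap.

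LOC_Os03g02460 stood at 115, 136 and 138 CPM under metcamifen at 30 min, at 64.5, 71.2 and 60.8 CPM at 90 min and at 82.7, 91 and 88.3 CPM at 240 min. Its DMSO libraries ranged from 117 to 145 CPM over all times. The metcamifen libraries at 240 min lay below all DMSO libraries of that time. That held at 16 of the 101 loci, a count with no share over other rows beside it. In LOC_Os02g13510 the metcamifen level was 8.86, 6.42 and 7.03 CPM at 90 min and 7.83, 5.63 and 7.76 CPM at 240 min, nearly the same, while DMSO stood at 23.3, 23.9 and 28.7 CPM and then at 11.6, 13.2 and 12.5 CPM. Its smaller ratio at 240 min lay in the DMSO level.

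Changes over time under cyprosulfamide used no library of the selection. Some same-numbered cyprosulfamide libraries deviated from their group means together. Between 30 and 90 min these deviations correlated at 0.41, 0.26 and -0.04 for replicates 1, 2 and 3. Between 90 and 240 min they correlated at 0.55, 0.53 and 0.20. At 90 min, same-numbered DMSO and cyprosulfamide libraries correlated at 0.59, 0.08 and 0.04 for replicates 1, 2 and 3. The cyprosulfamide libraries were thus separate from the selection but not wholly independent of it. The main tests did not pair the libraries. From 30 to 90 min 1 of the 101 loci fell and none rose, beside 0.0567% and 0.136% of all loci. From 90 to 240 min 3 fell and none rose, beside 0.404% and 0.136%. The medians were -0.03 and -0.16, with 53 and 63 loci below 0. Over all tested loci they were 0.004 and 0.003, with 49.1% and 49.5% below 0. For 85 and 77 loci the 95% interval left no room for a 2-fold change.

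LOC_Os04g54240 fell from 21.4, 22.5 and 14.7 CPM at 30 min to 4.94, 5.49 and 2.57 CPM at 90 min under cyprosulfamide, a change of -2.16 (SE 0.412, adjusted p = 0.0221). In DMSO it stood at 34.4, 13 and 22.3 CPM and then at 6.84, 4.41 and 8.28 CPM. In both treatments every 90 min library lay below every 30 min library. From 90 to 240 min, LOC_Os10g36360 fell from 7.12, 6.15 and 6.73 CPM to 1.45, 2.28 and 3.72 CPM (-1.34, SE 0.261, adjusted p = 0.0138). LOC_Os02g13510 fell from 16.7, 26.5 and 20.1 CPM to 10.2, 11.7 and 9.39 CPM (-1.04, SE 0.208, adjusted p = 0.0159). LOC_Os05g29810 fell from 4.58, 3.44 and 2.77 CPM to 1.63, 0.976 and 1.40 CPM (-1.5, SE 0.329, adjusted p = 0.0331). Each of these calls was lost in at least 2 of 11 alternatives. LOC_Os04g54240 lost it without cyprosulfamide replicate 1 or 2 at 30 min and without any single replicate at 90 min (adjusted p up to 0.17). LOC_Os10g36360 lost it without replicate 1 or 2 at 240 min, LOC_Os02g13510 without replicate 2 at 90 min or replicates 1 or 3 at 240 min, and LOC_Os05g29810 without replicate 1 or 2 at 90 min or any at 240 min, with adjusted p up to 0.0901, 0.137 and 0.157.

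**Figure D4:**
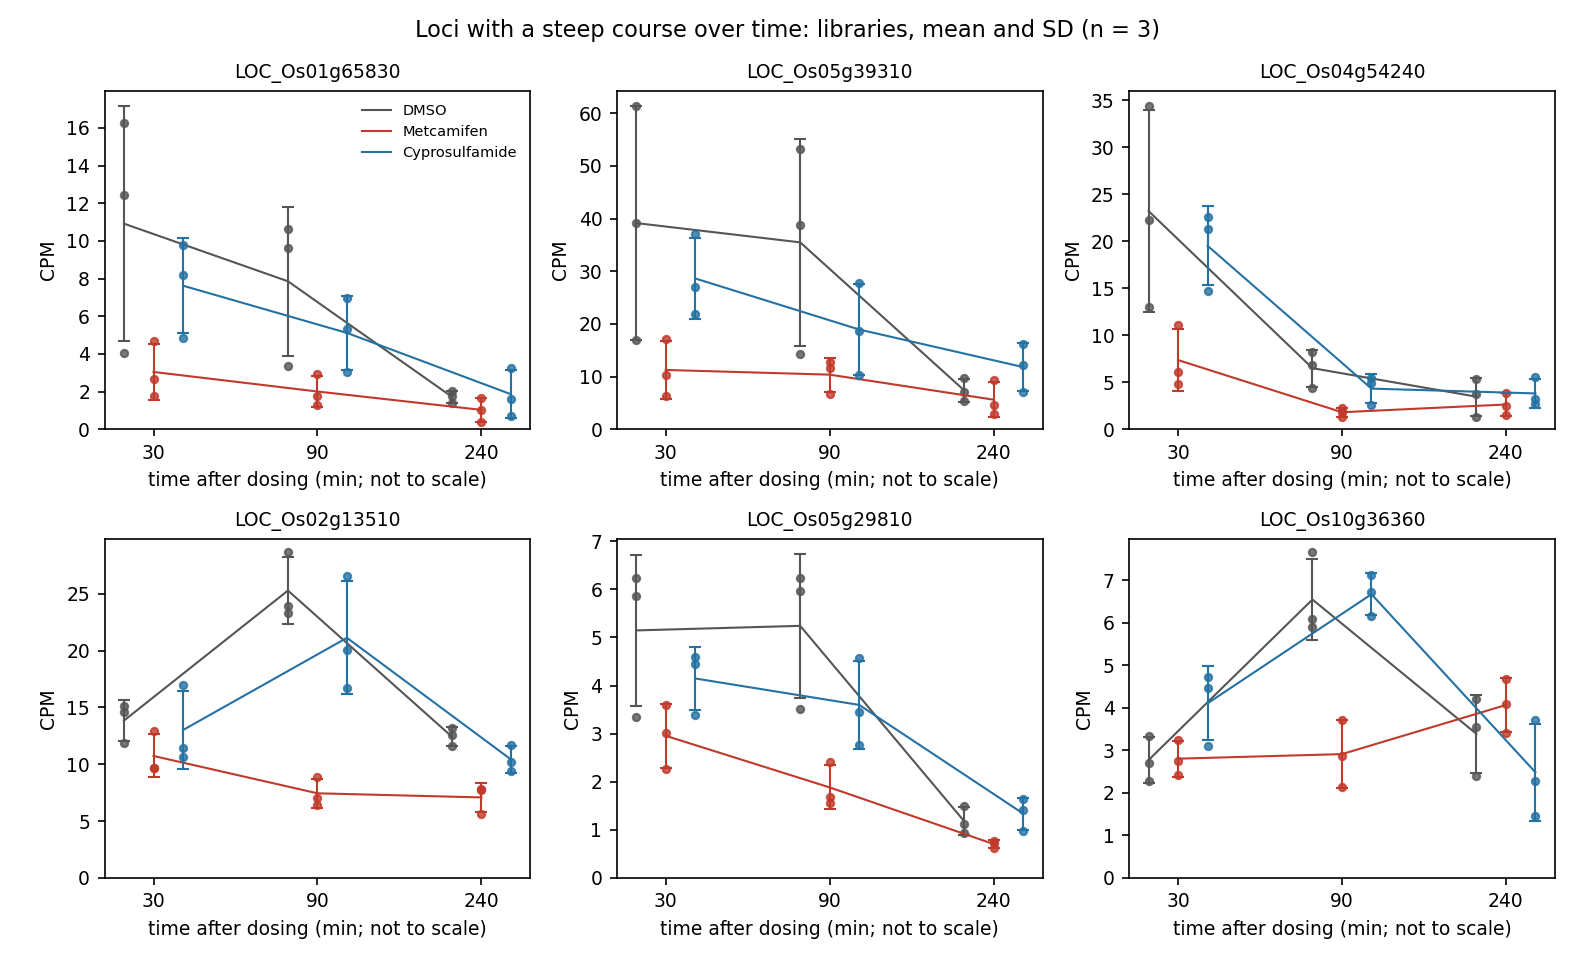
CPM at 30, 90 and 240 min of LOC_Os01g65830, LOC_Os05g39310, LOC_Os04g54240, LOC_Os02g13510, LOC_Os05g29810 and LOC_Os10g36360, by treatment, with points for libraries and the mean and SD of each group (n = 3). The metcamifen points lie below the DMSO points at 90 min in every panel, as the selection requires, and LOC_Os04g54240 is lower at 90 than at 30 min in all 3 treatments.

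By identifier, the 101 loci lie on all 12 chromosomes, with 22 on chromosome 1 and 18 on chromosome 3. Chromosome 1 held 21.8% of them beside 14.1% of the rows at that level, chromosome 3 held 17.8% beside 13%, and chromosome 2 held 5.94% beside 11.6%. There were 5 runs of loci whose identifier numbers on a chromosome differ by at most 50, with 11 loci in them. Runs among other rows were not counted, so these have no background beside them. A single run held 3 loci, LOC_Os03g06680, LOC_Os03g06700 and LOC_Os03g06705 on chromosome 3.

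**Figure D5:**
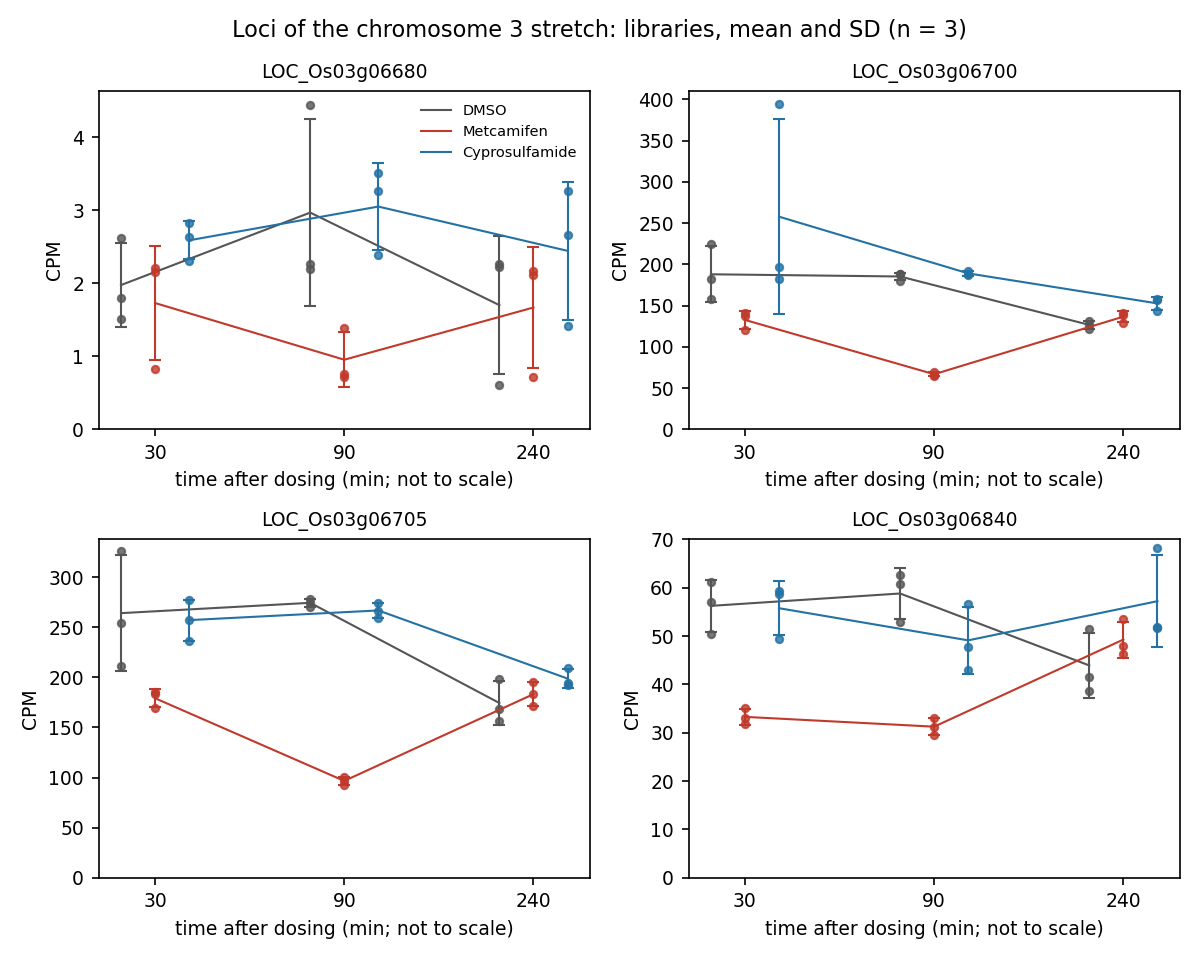
CPM at 30, 90 and 240 min of LOC_Os03g06680, LOC_Os03g06700, LOC_Os03g06705 and LOC_Os03g06840, by treatment, with points for libraries and the mean and SD of each group (n = 3). At 90 min the metcamifen libraries of each locus lie below the DMSO libraries, as the selection requires, and LOC_Os03g06700 has a high cyprosulfamide library at 30 min, at 394 CPM.

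The first of the 3, LOC_Os03g06680, stood at 4.45, 2.26 and 2.20 CPM in DMSO at 90 min and at 0.756, 1.39 and 0.719 CPM under metcamifen, and its groups overlapped at 30 min. LOC_Os03g06700 and LOC_Os03g06705 stood at higher counts and had like ratios at every time, -0.50 and -0.56 at 30 min, -1.47 and -1.5 at 90 min and 0.11 and 0.07 at 240 min. How reads shared by neighbouring or similar loci were counted is not given in the sources used here, so these cannot be taken as 2 independent observations. The wider stretch to LOC_Os03g06600 and LOC_Os03g06840 was picked after its values were seen. It holds 23 rows, of which 17 reach the DMSO level and 5 are among the 101. The 12 others had 90 min ratios between -0.48 and 0.24, with a median of -0.06.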

How the data were processed

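PolyA RNA of 27 suspension-culture libraries was sequenced. The authors deposited whole-number read counts per locus, not normalized. GSNAP and edgeR appear, unversioned, in the submitters' processing notes. Not given in the sources used here: build, annotation, strand use and how reads matching several loci were handled. Library totals were 5516373 to 43747251. CPM used column totals. Tests used edgeR 4.0.16 in R 4.3.3: filterByExpr (minimum count 10, minimum total 15; 26465 loci, all 101 kept), TMM, glmQLFit with 9 group means (18 residual degrees of freedom), glmQLFTest, Benjamini-Hochberg adjustment over all loci, two-sided. Standard errors are the fold change over the root of F. The script was tested on simulated data. Alternatives were DESeq2 1.42.0, RLE scaling, no filter, a 6-library fit, a replicate block and leaving out each library.

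The members and lists were chosen with earlier results of these data known. Loci named are the 10 lowest 90 min ratios, the 5 highest DMSO levels, up to 8 called per 30 min contrast, up to 5 rises and falls called per cyprosulfamide time step, the 3 nearest each side of both thresholds, runs of 3, the 5 highest 240 min ratios and the 5 lowest and highest 30 min ratios. Some loci were named after their values were seen. They are the loci called at 240 min, LOC_Os04g23550, the wider chromosome 3 stretch and the last 4 flagged for a closer look.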

Additional observations from a re-analysis of the deposited data

Results flagged for a closer look

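The 2 safeners' effects at 30 min differed at 12 of the 101 loci, each with a lower value under metcamifen than under cyprosulfamide at an adjusted p under 0.05 in edgeR. With the DMSO libraries common to both effects, the difference between them is the log2 fold change of metcamifen against cyprosulfamide. It was -0.73 at LOC_Os03g06840, -0.96 at LOC_Os03g06700, -1.41 at LOC_Os03g09120, -0.82 at LOC_Os01g04120, -0.51 at LOC_Os03g06705, -0.99 at LOC_Os11g02850, -0.93 at LOC_Os01g64430 and -0.58 at LOC_Os03g38640. The remaining 4 were LOC_Os10g04090 at -0.42, LOC_Os01g54570 at -1.08, LOC_Os07g48510 at -0.93 and LOC_Os07g08460 at -0.67. LOC_Os01g54570 stood at 7.56, 5.73 and 4.61 CPM under metcamifen and at 8.80, 19.1 and 8.25 CPM under cyprosulfamide, so cyprosulfamide replicate 2 lay far above the other libraries. Without that library its difference was -0.53 (edgeR adjusted p = 0.68, the highest over its alternatives), that of LOC_Os01g04120 was -0.51, and 3 of the 12 loci were still called, LOC_Os03g06840, LOC_Os03g06700 and LOC_Os03g09120.

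The calls of LOC_Os10g04090, LOC_Os01g54570, LOC_Os07g48510 and LOC_Os07g08460 were lost in 6, 5, 7 and 7 of 11 alternatives, with edgeR adjusted p up to 0.306, 0.68, 0.387 and 0.474. All 4 were lost in the 6-library fit and without cyprosulfamide replicate 2 or metcamifen replicate 2 or 3, and all but LOC_Os01g54570 without metcamifen replicate 1. LOC_Os10g04090 and LOC_Os07g08460 were also lost without cyprosulfamide replicate 1, and LOC_Os07g48510 and LOC_Os07g08460 without cyprosulfamide replicate 3. LOC_Os01g54570 and LOC_Os07g48510 were lost with the replicate number as a block (adjusted p = 0.0678 and 0.0610).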

How the results depend on the processing

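The number of loci chosen was 53 at a 90 min ratio of -1, 268 at -0.6 and 53 with 2 CPM added before the ratio, and between 96 and 182 without single libraries (182 without DMSO replicate 1 at 90 min, 152 without DMSO replicate 2, 168 without metcamifen replicate 1). Leaving out a library also loosens the demand that libraries be separate. The rule chose 88 loci with TMM-adjusted totals and 83 with DESeq2 size factors, all of them among those chosen on column totals. Membership of the other loci thus depends on the scaling. TMM factors at 90 min were 0.946 to 0.978 under metcamifen and 0.993 to 1.013 in DMSO, and a lower factor raises a library's CPM. On column totals, 68% of the rows at the DMSO level had a 90 min ratio below 0. For metcamifen against DMSO at 30 min the fit to the 6 compared libraries alone called 2 lower, and leave-one-out fits 2 to 11 lower and 0 to 1 higher. Against cyprosulfamide these were 4, and 3 to 13 lower. For cyprosulfamide from 30 to 90 min, DESeq2 called 1 higher, and leave-one-out fits 0 to 1 in each direction, with the median change between -0.083 and 0.104. From 90 to 240 min, DESeq2 and the unfiltered fit called 6 lower, the 6-library fit 8, and leave-one-out fits 0 to 3. Counts called in alternative fits, here and above, have no share over all tested loci beside them. A fit that calls more loci of any kind would also raise these counts, so their differences from the main fit are a description only. Why the counts differ was not tested. With the replicate number as a block, the counts were 9 lower for metcamifen against DMSO and 11 against cyprosulfamide. Same-numbered metcamifen and DMSO libraries of one time correlated at -0.84 to -0.29, so they deviated from their groups in opposite directions. For DMSO and cyprosulfamide the values were 0.04 to 0.59, and for metcamifen and cyprosulfamide -0.54 to 0.10. The replicate block uses numbers that follow library order. It assumes a shift common to all treatments, so it does not describe the opposite deviations. What lies behind them was not tested. Of 24 single-locus calls, 2 held in all 11 alternatives, and none changed sign. Both that held were of LOC_Os03g06840, against DMSO and against cyprosulfamide, and they share the metcamifen libraries at 30 min. With 3 libraries per group and 15 loci under 10 counts in some library, true changes may have gone uncalled. No limit of detection is given here.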
